A study of Mus musculus with 12 samples.

Results

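Loci that held 2 or more copies of the binding sequence of the transcription factor AP-1 were described across peak lists from ATAC-seq, an assay in which the Tn5 transposase marks accessible DNA, of transformed mouse embryonic fibroblasts (MEFs). Peaks of the 7 deposited lists were merged wherever they overlapped by at least 1 bp on chromosomes 1 to 19, X and Y, which gave 147985 loci. The mm10 sequence of each locus was searched for the TPA-response element TGACTCA or its reverse complement TGAGTCA. It held 2 or more matches in 5734 loci, 1 match in 37400 and 0 matches in 104851. The choice of members used the genome sequence and the positions of all peaks together, not the state of a locus in any group.

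AP-1 is a dimer of Fos and Jun family proteins, or of related basic leucine zipper proteins such as the Atf, Batf and Maf families, which reads a short palindrome on DNA. Growth factor signalling through Ras, Raf, MEK and ERK raises the amount and activity of Fos and Jun proteins, and AP-1 is known in fibroblasts for binding enhancers far from promoters together with other factors such as TEAD. PD (PD0325901) is an inhibitor of MEK, the kinase directly above ERK. TSA (trichostatin A) inhibits histone deacetylases, which remove acetyl groups from histones.

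All lines were made from OG2 MEFs, which carry a green fluorescent reporter driven by Oct4, by introducing transgenes and passaging the cells for at least a month. The growth protocol of the labels names the ICR background, and the study's methods give OG2 for these experiments. Hras.E1A and Hras.Myc cells (Ras.E1A and Ras.Myc in the labels) carry an oncogenic Ras together with the adenoviral E1A or with Myc, and each was left untreated, given PD or given TSA for 2 days. Hdac7SA.Mef2d cells carry Mef2d and a form of the histone deacetylase Hdac7 in which serines were changed to alanine, a change that keeps the protein in the nucleus, and they were untreated. There were 12 libraries of about 50000 cells in 7 groups, 2 in each group except the TSA groups with 1, and each group had 1 deposited list. The libraries of a group therefore could not be compared, and nothing in the labels says whether they came from separate cultures.

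A locus was called open in a group where a peak of its list overlapped it. Closed with a treatment means that the untreated list had a peak and the treated list had none, opened is the reverse, and kept means a peak in both. The lists held from 56774 peaks (Hras.Myc+PD) to 119251 (Hdac7SA.Mef2d), so that a share of open loci depends on the length of its list. The files gave no reads per locus, so depth is unknown and a closed locus may still have been cut by Tn5. Shares carry exact binomial 95% intervals in parentheses, ratios carry approximate 95% counting intervals, and both cover counting error only and treat loci as independent. No p-value is given, because a list is 1 value per group. Of 16 fibroblast markers, 10 to 14 had an open promoter in each list, against 0 or 1 of 7 blood markers, 5 to 7 of 9 epithelial, 3 or 4 of 5 neural and 1 to 3 of 5 endothelial markers.

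The sequences below show what the members look like in the main states. They are written 5′ to 3′ on the forward strand of mm10 (GRCm38) with each AP-1 site in capitals. The members near Egfr and Ccn1 lost their peak with PD in both lines, and those near Klf6 and Krt8 kept it. These 4 loci were chosen after their states were seen, as the member nearest to a gene named in the results.
Member near Egfr, chr11:16735413-16735490, intergenic, 16593 bp from the TSS: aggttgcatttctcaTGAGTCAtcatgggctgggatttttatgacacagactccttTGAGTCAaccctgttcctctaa
Member near Ccn1, chr3:145641194-145641304, intergenic, 8489 bp from the TSS: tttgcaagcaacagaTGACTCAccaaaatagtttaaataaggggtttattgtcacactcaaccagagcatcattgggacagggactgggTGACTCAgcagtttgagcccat
Member near Klf6, chr13:5845246-5845295, intergenic, 15855 bp from the TSS: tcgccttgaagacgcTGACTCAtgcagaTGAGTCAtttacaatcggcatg
Member at Krt8, chr15:102005416-102005618, promoter, 841 bp from the TSS: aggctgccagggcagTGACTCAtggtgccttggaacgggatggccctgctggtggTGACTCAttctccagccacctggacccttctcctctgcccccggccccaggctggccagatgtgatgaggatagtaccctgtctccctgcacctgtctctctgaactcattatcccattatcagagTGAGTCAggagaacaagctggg
The sites of these members started 41, 74 and 13 bp apart near Egfr, Ccn1 and Klf6, and the 3 sites at Krt8 were 40 and 126 bp apart.

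A second set shows the members with the most sites in particular states, taken by a rule based on the number of sites. Few loci were as dense: 5284 members had exactly 2 sites, 386 had 3 and 64 had 4 or more, with a maximum of 17. The densest loci were tandem arrays in which a short unit with an AP-1 site was repeated. The member inside Atxn1 (17 sites, 15 of them in the stretch shown, nearest start site Gmpr) was open in all 7 lists. The member inside Efr3b (15 sites, 13 shown, nearest start site Pomc) was closed with PD in both lines. The member inside Nell2 (10 sites) was closed with PD in Hras.Myc cells only. The member near Cst10 (4 sites) was open in Hdac7SA.Mef2d cells alone. The member nearest to Slc16a7 (2 sites) was among the few opened with PD in both lines.
Intron of Atxn1, chr13:45623870-45624169: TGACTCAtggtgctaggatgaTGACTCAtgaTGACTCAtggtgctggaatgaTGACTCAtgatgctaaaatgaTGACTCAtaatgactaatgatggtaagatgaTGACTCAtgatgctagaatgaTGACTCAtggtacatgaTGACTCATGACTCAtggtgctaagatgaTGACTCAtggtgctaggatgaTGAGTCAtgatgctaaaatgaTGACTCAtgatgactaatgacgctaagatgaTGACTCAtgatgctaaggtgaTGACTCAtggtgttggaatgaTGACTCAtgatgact
Intron of Efr3b, chr12:3973069-3973368: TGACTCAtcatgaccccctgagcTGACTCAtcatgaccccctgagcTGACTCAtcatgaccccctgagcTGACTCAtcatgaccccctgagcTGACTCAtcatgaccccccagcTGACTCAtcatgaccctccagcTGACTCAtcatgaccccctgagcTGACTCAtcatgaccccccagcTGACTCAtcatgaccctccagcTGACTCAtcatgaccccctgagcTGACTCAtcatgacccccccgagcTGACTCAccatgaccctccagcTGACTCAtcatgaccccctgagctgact
Intron of Nell2, chr15:95276653-95276889: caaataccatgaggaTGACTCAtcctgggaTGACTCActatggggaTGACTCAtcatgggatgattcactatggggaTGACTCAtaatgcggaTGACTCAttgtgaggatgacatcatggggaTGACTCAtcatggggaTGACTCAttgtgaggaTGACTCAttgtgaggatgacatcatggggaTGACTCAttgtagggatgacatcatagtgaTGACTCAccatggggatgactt
Intergenic near Cst10, chr2:149537947-149538177: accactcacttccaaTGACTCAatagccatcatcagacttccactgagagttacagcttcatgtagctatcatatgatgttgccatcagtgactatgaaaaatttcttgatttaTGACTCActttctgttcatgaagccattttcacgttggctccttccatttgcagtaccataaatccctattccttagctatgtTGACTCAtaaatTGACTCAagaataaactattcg
Intergenic near Slc16a7, chr10:124371023-124371224: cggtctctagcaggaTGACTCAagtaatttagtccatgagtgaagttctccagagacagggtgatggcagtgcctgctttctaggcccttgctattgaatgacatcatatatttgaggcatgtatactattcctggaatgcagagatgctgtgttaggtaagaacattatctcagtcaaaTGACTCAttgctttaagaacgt
The peak score has no stated scale and orders peaks within a list, so values from different lists are given side by side and not as a change. The Atxn1 array scored 5.20 in Hdac7SA.Mef2d, 8.22 in Hras.E1A, 2.75 with PD and 16.5 with TSA, and 14.7 in Hras.Myc, 10.0 with PD and 6.71 with TSA. The Nell2 array scored 14.3 in Hras.E1A cells and 4.89 with PD, and 20.1 in Hras.Myc cells with no peak after PD. The member near Slc16a7 had no peak in either untreated Hras line or with TSA, and scored 18.4 with PD in Hras.E1A, 6.24 with PD in Hras.Myc and 8.88 in Hdac7SA.Mef2d. The Efr3b array scored 4.30 in untreated Hras.E1A, 3.46 in untreated Hras.Myc, and 1.84 and 1.42 in their TSA lists. The 3 arrays shown, with 17, 15 and 10 sites, had 3 different states because each was taken to represent its own state. They therefore do not show how state varies among dense arrays. The 2 members with 11 sites, not shown, repeated states already seen. That near Slc28a3 was closed with PD in both lines, and that near Twsg1 was open in all 7 lists.

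Members made up 3.87% (3.78 to 3.97) of all loci. Of 276675 windows of the same length placed 2000 bp to either side of a locus and clear of any locus, 0.197% (0.180 to 0.214) held 2 or more sites, and 5.82% (5.73 to 5.91) held 1 site against 25.3% (25.1 to 25.5) of loci. Almost every member, 5711 of 5734, was exactly 400 bp wide, the width of a deposited peak. Their median GC content was 45.0%, against 45.2% for loci with 1 site and 47.0% with 0 sites. Members lay away from promoters. A start site of a protein-coding gene (TSS) was within 1000 bp of 1.67% (1.36 to 2.04) of members, against 3.14% (2.97 to 3.32) of loci with 1 site and 15% (14.8 to 15.3) with 0 sites. Introns held 40.6% of members, intergenic sequence 54.3% and exons 3.4%. The median distance to the nearest TSS was 45882 bp for members, 40752 bp for loci with 1 site and 28153 bp for loci with 0 sites. Members were spread over all chromosomes, from 3.41% of the loci of chromosome 4 to 4.47% of those of chromosome X, with 1 member among the 17 loci of chromosome Y. Of 5713 neighbouring pairs of members, 79 (1.38%) started within 5000 bp of each other, and this was not counted for other loci.

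Members were open more often than other loci in the untreated and TSA-treated Hras lines, and less often than loci with 0 sites after PD. In Hras.E1A cells 75.4% (74.3 to 76.5) of members were open, against 60.3% of loci with 1 site and 51.2% with 0 sites. With PD the order turned: 20.6% (19.5 to 21.6) of members were open, against 22.3% and 47.4%. With TSA 80.6% (79.6 to 81.6) of members were open, against 62.9% and 48.6%. Hras.Myc cells had the same order when untreated, with 69.9% (68.7 to 71.1) of members open, against 52.7% and 41.4%. With PD 28.4% (27.2 to 29.6) of members were open in Hras.Myc, above the 24.8% (24.4 to 25.2) of loci with 1 site and below the 43.2% with 0 sites. With TSA the shares were 72.2%, 55.0% and 43.6%.

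In Hdac7SA.Mef2d cells the 3 classes were close to each other. Of all loci 80.2% were open in that list, and the shares were 78.4% (77.4 to 79.5) of members, 76.9% of loci with 1 site and 81.4% with 0 sites. This list was the longest, and with every list reduced to its 56774 highest-scoring peaks the share of members open in it was 51.7% (50.3 to 53.1). The shares of the other classes were not computed at that length, so their closeness was not checked there.

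**Figure D1:**
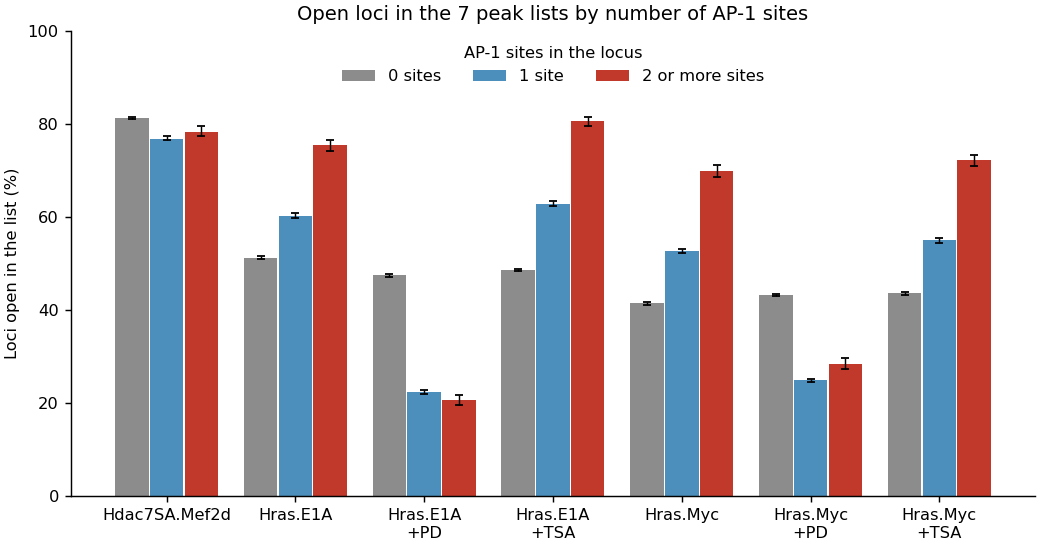
Share of loci open in each of the 7 lists (vertical axis, percent of loci of the class) for loci with 0, 1 and 2 or more AP-1 sites; bars are shares and whiskers exact binomial 95% intervals. Members reach 75.4% and 69.9% in the untreated Hras.E1A and Hras.Myc lists and stand at 20.6% and 28.4% with PD, while the 3 classes lie between 76.9% and 81.4% in Hdac7SA.Mef2d.

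The members took 90 of the 127 patterns of states found among all loci. The commonest, 1211 members or 21.1% (20.1 to 22.2), was open in every list except those with PD; 10.6% of loci with 1 site and 1.69% with 0 sites had it. The next, open in all 7 lists, held 850 members or 14.8% (13.9 to 15.8), against 12.2% of loci with 1 site, 23.3% with 0 sites and 20.2% of all loci. With promoter loci left out, members were not below loci with 0 sites. The shares were then 14.5% (13.6 to 15.5) of members, 11.1% with 1 site, 14.3% with 0 sites and 13.5% of all such loci. A further 532 members, or 9.28% (8.54 to 10.1), lacked a peak only in Hras.E1A+PD, against 4.64% of loci with 1 site and 1% with 0 sites. Another 495, or 8.63% (7.92 to 9.39), were open in both Hras lines with and without TSA but neither with PD nor in Hdac7SA.Mef2d, against 6.4% and 1.07%. Loci open in Hdac7SA.Mef2d alone were scarcer among members: 620 or 10.8% (10.0 to 11.6), against 20.8% with 1 site, 25.8% with 0 sites and 24.0% of all loci. Both untreated Hras lines had a peak at 64.1% (62.8 to 65.3) of members, against 45.7%, 37.7% and 40.7% of all loci.

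PD closed most members in both Hras lines. That loci with an AP-1 site close with PD in these lists was known when the members were chosen, so the comparison of interest here is between 2 or more sites and 1. In Hras.E1A cells 3164 of 4323 open members were closed, 73.2% (71.8 to 74.5), against 66.4% (65.7 to 67.0) of loci with 1 site, 24.6% with 0 sites and 38.9% of all loci. The ratio of members to loci with 1 site was 1.10 (1.08 to 1.13). In Hras.Myc cells 2456 of 4009 open members were closed, 61.3% (59.7 to 62.8), against 60.1% (59.4 to 60.8), 26.4% and a background of 38.4%. There the ratio of members to loci with 1 site was 1.02 (0.992 to 1.05), an interval that includes 1. When a purine before and a pyrimidine after each site were required, which left 654 members, both ratios fell below 1: that for Hras.E1A turned to 0.980 (0.923 to 1.04), and that for Hras.Myc was 0.923 (0.854 to 0.996). With 1 site against 0 sites the ratios were 2.70 (2.65 to 2.74) and 2.28 (2.23 to 2.32), so that the step from 0 to 1 site was far larger than any later step. This step was smaller with promoter loci left out. PD then closed 31.6% of loci with 0 sites, 67.8% with 1 site and 73.6% of members in Hras.E1A. In Hras.Myc the shares were 35.8%, 61.6% and 61.6%. From 2 sites to 3 or more Hras.E1A had a ratio of 0.976 (0.914 to 1.04) and Hras.Myc one of 0.920 (0.838 to 1.01).

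Opening with PD was rare at members. Of the members without a peak in untreated Hras.E1A, 21 of 1411 were opened, 1.49% (0.924 to 2.27), against 4.98% of loci with 1 site, 18.1% with 0 sites and 14.9% of all loci. In Hras.Myc 76 of 1725 were opened, 4.41% (3.49 to 5.48), against 7.95%, 21.7% and 18.4% of all loci. The ratios to loci with 1 site were 0.299 (0.195 to 0.460) and 0.554 (0.443 to 0.695). With the flanking bases required they were 0.654 (0.212 to 2.02) and 0.947 (0.479 to 1.87), and both intervals then include 1. Both lines opened the same 4 members, 4 of 1076 open in neither untreated Hras line, against 6.71% of all such loci. They included a member near Tnfsf15, which encodes a cytokine of the tumour necrosis factor family, and the member near Slc16a7 shown above.

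TSA closed few members and opened many. In Hras.E1A cells 240 of 4323 members were closed with TSA, 5.55%, against 13.4% of loci with 1 site, 17.6% with 0 sites and 15.8% of all loci. In Hras.Myc cells 343 of 4009 were closed, 8.56%, against 15%, 17.8% and 16.4% of all loci. The ratios to loci with 1 site were 0.414 (0.364 to 0.470) and 0.571 (0.513 to 0.635). Among loci open in both untreated lines, TSA closed 27 of 3674 members in both, against 2.62% of all such loci. TSA opened 539 of the 1411 members without a peak in Hras.E1A, 38.2%, against 26.8% with 1 site, 13.2% with 0 sites and 16.7% of all loci. In Hras.Myc it opened 473 of 1725, 27.4%, against 21.5%, 16.4% and 17.7%. Each TSA list rests on 1 library.

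**Figure D2:**
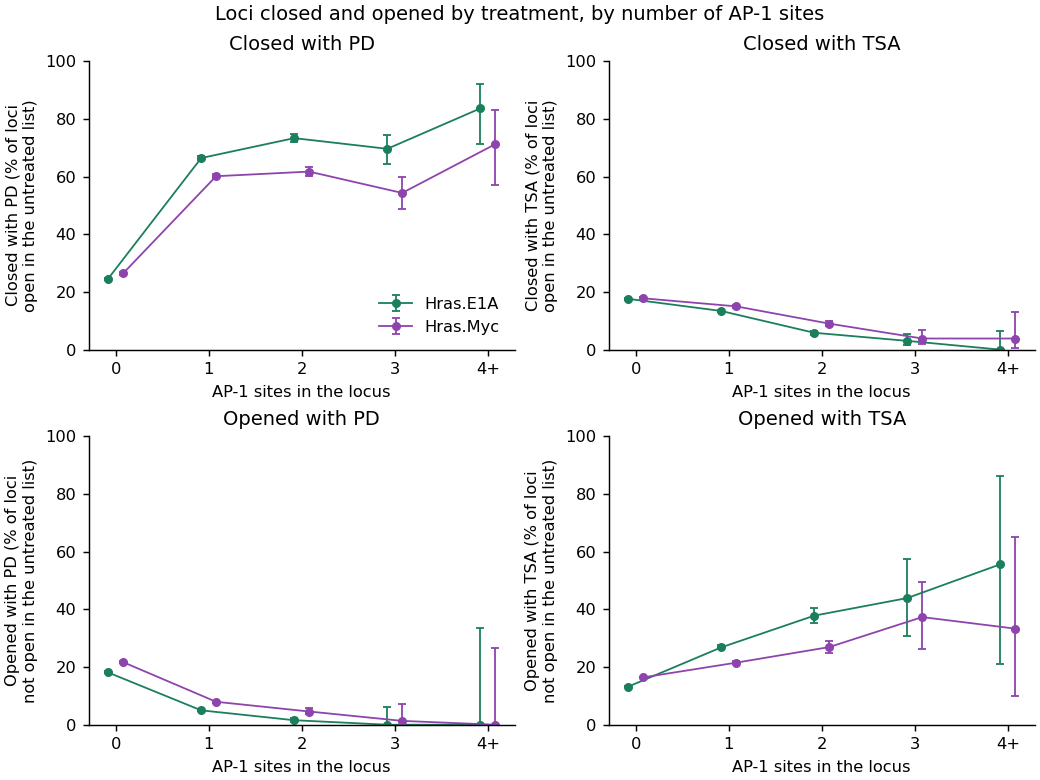
Shares of loci closed (top) and opened (bottom) with PD (left) and TSA (right) by number of AP-1 sites in the locus, for Hras.E1A and Hras.Myc; points are percent of loci open (top) or not open (bottom) in the untreated list and whiskers exact binomial 95% intervals. Closing with PD steps up between 0 and 1 site (24.6% to 66.4% in Hras.E1A). Closing with TSA goes down with each site from 17.6% at 0 sites to 5.84% at 2 sites in Hras.E1A. The peak score is not held equal here.

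The 2 Hras lines could be compared locus by locus at the 3674 members open in both when untreated. PD closed 1956 of them in both lines, 53.2%, against 47.6% of loci with 1 site, 11.7% with 0 sites and 24.4% of all such loci. It left 905 open in both, 24.6%, against 30.1%, 73.1% and 57.9% of all such loci. The members closed in 1 line were unevenly divided: 622 were closed in Hras.E1A only and 191 in Hras.Myc only, a ratio of 3.26 (2.77 to 3.83). Loci with 0 sites were divided the other way, with 1892 closed in Hras.E1A only and 4136 in Hras.Myc only, a ratio of 0.457 (0.433 to 0.483). Loci with 1 site lay between them, with 2394 and 1420. The split between the lines thus went in opposite directions for members and for loci without a site, and both directions held when all lists were cut to equal length, with ratios of 3.54 (2.97 to 4.22) and 0.431 (0.401 to 0.463).

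Members closed with PD in both lines had a peak in the other lists more often than other loci closed in that way. Both TSA lists had a peak at 1706 of the 1956, 87.2% (85.7 to 88.7), against 78.4% with 1 site and 62.9% with 0 sites. Hdac7SA.Mef2d cells had a peak at 1374 of them, 70.2% (68.2 to 72.3), against 61.6% and 58.4%. Of the 905 members kept with PD in both lines, 878 were open in Hdac7SA.Mef2d, 97% (95.7 to 98), close to the 95.2% with 1 site, 95% with 0 sites and 95.1% of all loci kept in that way.

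Promoter members were few, and PD closed them more often than promoters without a site. Among loci within 1000 bp of a TSS, PD closed 43 of 81 members in Hras.E1A, 53.1% (41.7 to 64.3), against 33.5% (30.4 to 36.6) of promoter loci with 1 site and 4.98% (4.63 to 5.35) with 0 sites. In Hras.Myc it closed 38 of 82, 46.3% (35.3 to 57.7), against 28.4% (25.5 to 31.5) and 5.52% (5.14 to 5.91).

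Peaks at members also scored higher, and the score went up with the number of sites. In Hras.E1A the median rank within the list, where 100% is the highest score, was 46.2% for open loci with 0 sites, 56.2% with 1, 72.9% with 2, 83.7% with 3 and 88.0% with 4 or more. In Hras.Myc the ranks were 45.7%, 56.1%, 73.1%, 83.7% and 86.8%. Hdac7SA.Mef2d had a shallower rise, from 47.8% at 0 sites to 61.6% at 2. In Hras.E1A+PD the rank was 51.1% at 0 sites and 45.9% at 2 sites, so the order by sites was absent there. In Hras.Myc+PD it was 50.2% at 0, 55.4% at 2 and 70.2% at 3 sites.

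The members that PD did not close had high ranks in the untreated lists and middle ranks in the PD lists. The lists differ in length, with 81201 peaks untreated and 59823 with PD in Hras.E1A and 67738 and 56774 in Hras.Myc, so the ranks are given side by side and not as a change. In Hras.E1A the 1159 kept members had a median rank of 82.6% untreated and 46.1% with PD, and 84.9% of them had a lower rank in the PD list. In Hras.Myc the 1553 kept members had 82.7% and 56.6%, with 78.2% lower in the PD list. In Hras.E1A kept loci with 1 site had 66.1% and 45.9%, and kept loci with 0 sites 50.3% and 55.6%. With TSA the kept members had ranks of 75.3% untreated and 78.6% treated in Hras.E1A, and of 76.4% and 75.9% in Hras.Myc. Ranks are relative to the other peaks of the same list, and the PD lists held fewer loci with sites.

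**Figure D3:**
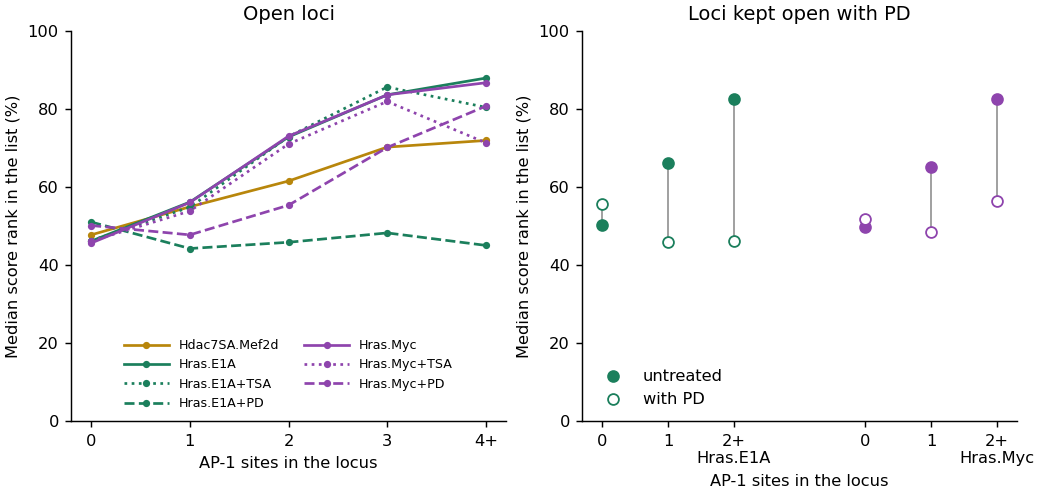
Left, median score rank of open loci in each list (100% is the highest score) by number of AP-1 sites; right, median rank of loci kept open with PD, in the untreated list (filled) and in the PD list (open circles). Kept members have 82.6% untreated and 46.1% with PD in Hras.E1A and 82.7% and 56.6% in Hras.Myc, and kept loci with 0 sites 50.3% and 55.6%, and 49.9% and 51.8%.

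Because the score differed so much between the classes, closing was also compared within 4 equal classes of the untreated score. In Hras.E1A members were closed more often than loci with 1 site in each class, with 88.8% (86.0 to 91.2) against 76.8% (75.5 to 77.9) in the lowest and 66.5% (64.4 to 68.5) against 57.0% (55.8 to 58.1) in the highest. In Hras.Myc the lowest class had 79.3% (75.7 to 82.7) against 70.2% (68.8 to 71.6), and the highest 51.8% (49.5 to 54.0) against 49.6% (48.4 to 50.9), where the intervals overlap. With width, GC and score held together in strata, members stood to loci with 1 site in a ratio of 1.12 (1.10 to 1.15) for Hras.E1A and 1.05 (1.02 to 1.07) for Hras.Myc. TSA closed members less often than loci with 1 site in each score class of both lines. Loci with 1 site were below those with 0 sites in the lowest and highest classes, but not in all. In class 3 from the lowest TSA closed 12.1% with 0 sites and 13.0% with 1 site in Hras.E1A, and 12.7% and 14.8% in Hras.Myc. In class 2 of Hras.Myc it closed 19.6%, 20.2% and 17.1% (14.2 to 20.3) of members.

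The sites of a pair sat near the middle of the peak. In the 5261 members of 400 bp with exactly 2 sites, the nearer site had its middle a median 27.5 bp from the centre and the farther site 81.5 bp, against 44.5 bp for the site of loci with 1 site. The spacing, measured from start to start, was up to 50 bp in 1644 of these members, 51 to 100 bp in 1447, over 100 and up to 150 bp in 944 and over 150 bp in 1226. Spacings of 10 and 11 bp stood out, with 57 and 69 members, or 63.0 per bp, against 32.7 per bp over 12 to 100 bp and 18 per bp over 7 to 9 bp. Spacings of 25 bp (64 members) and 69 bp (52 members) were also frequent, but 23 and 34 of those members had a site in a soft-masked repeat, against 4 of 57 and 8 of 69 at 10 and 11 bp. Over all members 20.6% (19.6 to 21.7) had a site in a soft-masked repeat.

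**Figure D4:**
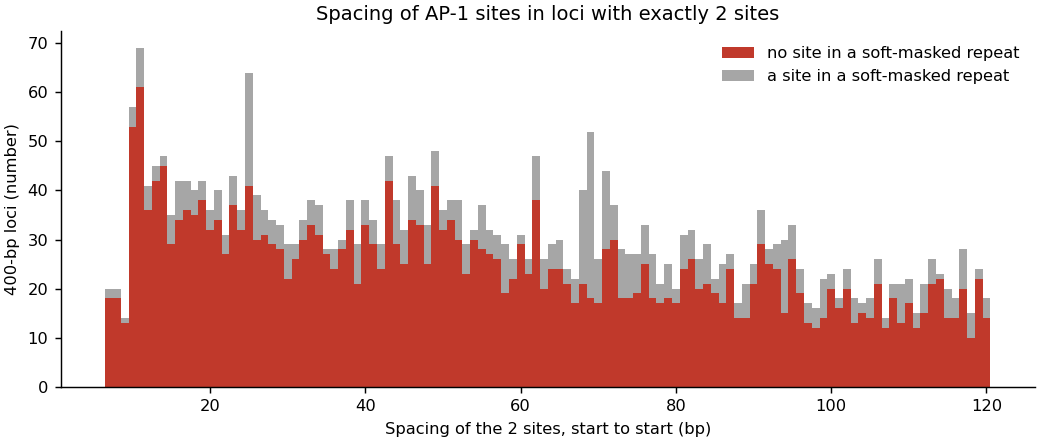
Number of 400-bp loci with exactly 2 AP-1 sites (vertical axis) at each spacing from 7 to 120 bp, start to start (horizontal axis), split by whether a site lies in a soft-masked repeat. Spacings of 10 and 11 bp hold 57 and 69 loci, and the peaks at 25 and 69 bp hold 23 and 34 loci with a site in a repeat.

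Spacing made a small difference to closing with PD. With spacings up to 50 bp 74.9% (72.5 to 77.2) were closed for Hras.E1A and 64.2% (61.5 to 66.8) for Hras.Myc, against 69.4% (66.1 to 72.6) and 59.2% (55.5 to 62.7) with spacings over 150 bp. The ratios were 1.08 (1.02 to 1.14) and 1.08 (1.01 to 1.17). When only the central 200 bp were searched the direction turned in Hras.E1A, with a ratio of 0.985 (0.843 to 1.15). Widely spaced pairs had a site far from the centre of the peak, with a median distance of 166 bp for the farther site at spacings over 200 bp, and a median rank of 52.6% in Hras.E1A against 76.0% at 21 to 50 bp. When both sites lay within 100 bp of the centre, the shares in Hras.E1A were 75.2% (72.7 to 77.6), 76.4% (73.5 to 79.2) and 75.7% (71.2 to 79.7) for spacings up to 50, 51 to 100 and over 100 bp. In Hras.Myc they were 64.1% (61.2 to 66.8), 62.4% (59.0 to 65.7) and 59.3% (54.1 to 64.4). This restriction was made after the data were seen.

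Closing with TSA changed more with spacing. In Hras.Myc it was 5.21% (3.30 to 7.79) at spacings up to 20 bp and 20.2% (16.2 to 24.5) over 200 bp, and in Hras.E1A 4.54% (2.79 to 6.92) and 10.2% (7.51 to 13.5). Opening with TSA went the other way, with 51% (45.3 to 56.7) up to 50 bp and 31.1% (26.6 to 35.9) over 150 bp in Hras.E1A, and 30.7% (26.1 to 35.7) and 22.7% (19.1 to 26.7) in Hras.Myc, where the intervals overlap. With both sites within 100 bp of the centre, TSA closed 3.05% (2.15 to 4.17), 4.87% (3.56 to 6.48) and 6.51% (4.33 to 9.33) in Hras.E1A over the same 3 spacing classes, and 5.34% (4.12 to 6.80), 7.21% (5.55 to 9.19) and 6.01% (3.8 to 8.96) in Hras.Myc. Pairs with the same middle base and pairs with different ones were closed with PD at 71.5% to 74.6% in Hras.E1A and at 60.5% to 63.9% in Hras.Myc.

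**Figure D5:**
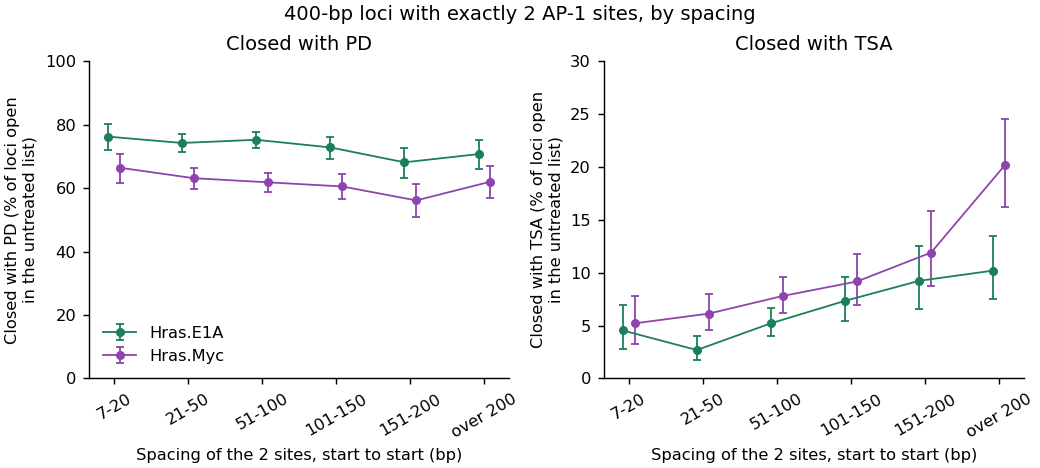
Share of 400-bp loci with exactly 2 AP-1 sites closed with PD (left) and with TSA (right, axis to 30%) by spacing of the sites in bp, for Hras.E1A and Hras.Myc; points are percent of loci open in the untreated list and whiskers exact binomial 95% intervals. PD shares stay between 56.1% and 76.2%, and TSA shares go from 5.21% to 20.2% in Hras.Myc.

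Binding sequences of other factors were searched on both strands in the 400-bp members. GGAATG, read by TEAD factors, occurred in 25.2% (24.1 to 26.3) of members, 28.6% of loci with 1 site, 29.9% with 0 sites and 29.4% of all 400-bp loci. Members with it were closed with PD less often than members without it, with 66.9% (63.9 to 69.7) against 75.3% (73.7 to 76.7) in Hras.E1A and 55.8% (52.6 to 58.9) against 63.0% (61.3 to 64.8) in Hras.Myc. CCGGAAG, read by ETS factors, occurred in 2.21% of members, 1.87% of loci with 1 site, 4.14% with 0 sites and 3.49% of all 400-bp loci. With promoter loci left out, the ratio of members to loci with 0 sites was 1.05 (0.876 to 1.26), an interval that includes 1. Of the 111 open members with it, 57.7% (47.9 to 67.0) were closed with PD in Hras.E1A, against 73.6% (72.2 to 74.9) of those without. In Hras.Myc the shares were 51.4% (41.7 to 61.0) with it and 61.5% (60.0 to 63.1) without, and the intervals overlap. The consensus sequence of the insulator protein CTCF was present in 9 of 5711 members, 0.158% (0.0721 to 0.299), against 2.06% of loci with 0 sites and 1.57% of all 400-bp loci. GGAATG or its reverse complement can share its TG or CA with an AP-1 site, the other sequences share no letters with it, and a match is not a measure of binding.

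By the nearest TSS within 50000 bp, 3004 members belonged to 2616 genes. Most of these genes, 2272, had 1 member, 305 had 2 and 39 had 3 or more, with a maximum of 4. The genes with 4 were Focad (focadhesin), Kirrel3 (a cell adhesion protein of neurons), Arhgef3 (a guanine nucleotide exchange factor), Cdk14 (a cyclin-dependent kinase) and Egfr, the receptor for epidermal growth factor. Genes with 3 included Plec (plectin, which links the cytoskeleton to adhesions), Arhgef10l, Col6a3 (a collagen VI chain), Gramd1b and Gtdc1. At Focad, 3 of the 4 members were open in both untreated Hras lines and all 3 were closed with PD in both. At Kirrel3 all 4 were open in Hras.E1A and closed with PD, and 2 were open in Hras.Myc, both closed. At Cdk14 all 4 were open in both lines, and PD closed 3 in Hras.E1A and 1 in Hras.Myc.

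The genes with most members closed in both lines were named after their states were seen. Egfr had 3 members open in both untreated lines, all closed with PD in both, and another in its intron that had a peak, scored 7.17, in Hdac7SA.Mef2d alone. The member 16593 bp from its TSS, whose sequence is given above, scored 6.66 in Hdac7SA.Mef2d, 6.53 in Hras.E1A, 6.04 with TSA, 6.38 in Hras.Myc and 8.10 with TSA, with no peak in either PD list. Kitl, the ligand of the receptor Kit, had 3 intronic members, each open in both untreated Hras lines and both TSA lists and in neither PD list. Hbegf, a ligand of the Egfr protein, had 2 members with the same states in the Hras lists, at low scores of 1.66 to 3.92. Focad, Gramd1b and Arhgef3 also had 3 members closed in both lines, and genes with 2 included Plec, Kirrel3, Mthfs and Svil, a membrane and actin binding protein.

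Klf6 had the most members kept with PD in both lines. This gene, which encodes a zinc finger transcription factor, had 3 members, all open in the 7 lists. The member 31203 bp from its TSS scored 16.6 in Hras.E1A against 3.41 after PD, and 17.6 in Hras.Myc against 7.63 after PD, whereas the member with the 13-bp spacing shown above scored 5.31 and 5.71, and 5.58 and 3.99. Krt8, a keratin of simple epithelia, had 2 such members, of which the promoter member scored 8.17 and 6.04 in Hras.E1A without and with PD and 13.0 and 7.50 in Hras.Myc. Cldn4, a tight junction protein, had 2, and its promoter member scored 9.04 and 4.58, and 12.2 and 7.46. Other genes with 2 members kept in both lines included Deptor (an inhibitor of mTOR), Specc1, Ank3, Bag3 (a chaperone partner), Capn2 (a calpain protease), Eps8 and Ppp2r3a, and Eps8 had a further member that was closed in both.

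Of all loci within 50000 bp of a TSS 3.35% (3.24 to 3.47) were members, and 2616 of 21911 genes had a member. Of 14 genes for AP-1 proteins 2 had 1 member, or 2.3% (0.28 to 8.06) of their loci, an interval that includes the share of all loci. The member in an intron of Batf3 was closed with PD in both lines, and the member 45657 bp from the TSS of Fos was closed in Hras.E1A and kept in Hras.Myc, where its score was 12.5 untreated and 4.49 with PD. Of 23 annotated genes for invasion and matrix that are known AP-1 targets, 7 had a total of 9 members, or 5.23% (2.42 to 9.7) of their loci. PD closed 6 of 6 open members of that list in Hras.E1A and 4 of 5 in Hras.Myc, including those near Hbegf, Cd44 (a hyaluronan receptor) and Ctsl (a lysosomal protease). Both members near Mmp10, a matrix metalloprotease, were open in Hdac7SA.Mef2d and in neither untreated Hras line, and 1 of them had a peak with TSA in both. Over all members within 50000 bp of a TSS, PD closed 70.8% (68.9 to 72.6) for Hras.E1A and 60.1% (58.1 to 62.1) for Hras.Myc, and the counts of a single list are too small to stand apart from these shares.

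Of 22 genes listed as feedback regulators or targets of ERK, 6 had 7 members, or 3.03% (1.23 to 6.14) of their loci. PD closed 3 of 6 open members in Hras.E1A and 4 of 6 in Hras.Myc. The member near Egr2, an early growth response factor, was closed in both lines, and the member near Dusp1, a phosphatase of MAP kinases, was open in all 7 lists and scored 10.1 and 5.25 in Hras.E1A without and with PD. At Dusp5, a phosphatase specific for ERK, the member was kept in Hras.E1A and closed in Hras.Myc. Spry1, an inhibitor of Ras signalling, had 1 member closed in both lines and 1 that was open in Hras.E1A alone.

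A list of TEAD and YAP targets also held the genes of the TEAD factors, Yap1 and Wwtr1 themselves. Of its 13 annotated genes, 7 had 9 members, or 6.16% (2.86 to 11.4) of their loci. PD closed 5 of 8 open members of that list in Hras.E1A and 5 of 7 in Hras.Myc. Ccn1, a matricellular protein, had 2 members, each with a peak in the 4 untreated and TSA lists of the Hras lines and in neither PD list. The nearer one, shown above, scored 2.22 in Hras.E1A, 5.04 with TSA, 4.79 in Hras.Myc and 5.32 with TSA and had no peak in Hdac7SA.Mef2d. Among the 9 members of the list, 2 were assigned to Tead1 and 1 to Tead4. The only member of Axl, a receptor tyrosine kinase, had a peak in Hras.Myc+TSA alone. Integrin and focal adhesion genes, the list with the most loci (356), had 14 members at 12 of 29 genes, or 3.93% (2.17 to 6.51) of those loci, and PD closed 7 of 13 in Hras.E1A and 4 of 11 in Hras.Myc. Both members of Vcl (vinculin) were closed in both lines, from untreated scores of 1.56 and 6.03 in Hras.E1A and 3.65 and 5.88 in Hras.Myc. Both of Ptk2 (focal adhesion kinase) were open in all 7 lists, with scores of 15.6 and 2.48 at 1 of them in Hras.E1A without and with PD. The member at Flnc was closed in Hras.E1A only.

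For markers of cell identity the share of members did not stand apart from the 3.35% of all loci within 50000 bp: it was 1.86% (0.386 to 5.35) for fibroblast markers and 4.42% (1.45 to 10) for pluripotency genes. Of 16 fibroblast markers 3 had 1 member each. Those near Dcn (decorin) and Prrx1 (a mesenchymal homeobox factor) were closed with PD in both lines, and that near Thy1 was open in all 7 lists. Of 20 pluripotency genes 3 had 5 members. Of the 3 in Esrrb, all open in both untreated Hras lines, 1 was closed with PD in both, 1 in Hras.E1A only and 1 in Hras.Myc only. The member near Nanog was closed in Hras.E1A only and the member near Tbx3 in both. Of 28 cell cycle genes 1, Ccne2, had a member, with a peak in the 2 TSA lists alone. The genes with most members open in Hdac7SA.Mef2d alone were Fhit, Sgpp2, Shisa6 and Slc22a22, with 2 each. Both members of Fhit, in its introns, scored 8.69 and 7.64.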

How the data were processed

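Alignment to mm10 with Bowtie2 (version 2.4.5) and peak calling with MACS2 (version 2.2.7.1) are listed in the submitters' processing notes. Per the study's methods, reads were aligned, peaks were called, and redefine_peaks recovered weak peaks by sharing positions between samples, so the lists are linked to each other. The authors deposited 1 BED list per group with a peak score of unstated scale, lowest value 1.20, in peaks of 400 bp. How libraries were combined, and the Tn5 offset, are not given in the sources used here. Wildtype MEFs were not analysed here.

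Sites were counted on the soft-masked GRCm38.p6 sequence from RefSeq, whose chromosomes match mm10, in Python 3.11.15 with numpy 2.4.6, pandas 2.3.3 and scipy 1.17.1. Coordinates count from 1. A site had to lie wholly inside the locus. A locus took its highest peak score. Distances and places come from the protein-coding genes of GENCODE M21 basic, and a promoter lay within 1000 bp of a TSS. The self-made pipeline was tested on simulated data with planted sites and states.

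The members, gene lists and comparisons were chosen with earlier results of these data known. Named genes were those with most members, overall and per state, and up to 4 per gene list, by nearest TSS within 50000 bp. Ties went to members within 10000 bp, then to the symbol, and predicted genes were left out. A gene that the rule named among the focal adhesion genes is not reported here. Loci named for a state had the most sites in that state, lay outside UTRs and chromosome 18 and had no soft-masked site. Those near Slc28a3 and Twsg1 were taken for their number of sites alone, and that near Twsg1 had 1 soft-masked site. Those near Egfr, Ccn1, Klf6 and Krt8 were taken as nearest to a named gene. Closing rules, site definitions, peak cut-offs and strata were varied as described under the dependence on processing.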

Additional observations from a re-analysis of the deposited data

How the results depend on the processing

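No paired analysis was possible because the libraries of a group were pooled in 1 list, and for the same reason no library could be left out. Of 156 alternative values, 126 lay within the interval of the reported value (for the number of members, within 1.5 times), and the cause of the other differences was not tested beyond what each setting does by construction. Some settings could change little. Requiring peaks to cover 50% of a locus left every value as it was. Using 400-bp loci alone kept 5711 of 5734 members and could not change the spacing ratios, which use only such loci. The number of members was 3512 when only the central 200 bp were searched and 654 when a purine before and a pyrimidine after the site were required. With those flanks the share closed with PD was 68.0% for Hras.E1A and 57.5% for Hras.Myc, and the ratio to loci with 1 site turned to 0.980 (0.923 to 1.04) in Hras.E1A and was 0.923 (0.854 to 0.996) in Hras.Myc. The ratios of opening with PD were then 0.654 and 0.947, the share open in Hdac7SA.Mef2d 80.7%, and the ratios of loci closed in Hras.E1A only to Hras.Myc only 2.19 for members and 0.719 for loci with 0 sites. Searching the central 200 bp gave 75.3% closed with PD in Hras.E1A, 0.378 for opening with PD in Hras.Myc, 0.323 and 0.421 for closing with TSA in Hras.E1A and Hras.Myc, spacing ratios of 0.985 (0.843 to 1.15) in Hras.E1A, which turned the direction, and 1.28 in Hras.Myc, and line ratios of 3.89 for members and 0.504 for 0 sites. Without the lowest-scoring 25% of peaks the shares closed with PD were 76.7% and 65.2%, that open in Hdac7SA.Mef2d 68.8%, and the line ratio for 0 sites 0.486. Lists of equal length gave 71.0% and 59.3% closed with PD, 51.7% open in Hdac7SA.Mef2d and 0.431 for 0 sites. Without soft-masked sites 59.7% were closed with PD in Hras.Myc and the line ratio for 0 sites was 0.488. Strata of width, GC and score gave 0.663 for closing with TSA in Hras.Myc. The line ratios were added after the data were seen. Naming genes within 10000 bp in place of 50000 bp kept 3 of the 10 genes with most members. It kept 6 of the 10 with most members closed with PD in both lines, without Egfr, Kitl, Arhgef3 and Kirrel3. Of the 10 with most members kept with PD in both lines it kept 3, without Klf6. Depth is unknown, and a peak missed in a shallow list cannot be told apart from a closed locus.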
